A study of Mus musculus with 16 samples.

Results

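The response of the mouse forebrain transcriptome to loss of the transcription factor Foxp1 was compared between hippocampus and cortex by a region by genotype interaction. The interaction is the hippocampal genotype effect minus the cortical one, that is (knockout hippocampus minus control hippocampus) minus (knockout cortex minus control cortex), each on log2(CPM + 0.5), where CPM is the read count of a gene scaled to the depth of its library. It drew on all 16 of the 16 libraries in the series: 4 of control hippocampus, 4 of knockout hippocampus, 4 of control cortex and 4 of knockout cortex. The knockouts lacked Foxp1 in forebrain pyramidal neurons, the controls were littermates, and all were male mice at postnatal day 47 whose left hemisphere was dissected. Which driver made the deletion, which part of Foxp1 it removed and whether 1 mouse gave both a hippocampal and a cortical library could not be read from the labels or design text. The design text calls the 4 replicates of a genotype independent, while no label names an animal, so p-values measure the spread between these libraries. Reads counted to genes numbered 6943136 to 14817870 per library. They ran from 9578904 to 14817870 in control and 6943136 to 14055344 in knockout hippocampus. In cortex they ran from 7075560 to 9037821 in controls and 8160441 to 9164571 in knockouts. Libraries bear the DJ numbers of their titles. Values of a group are given in the order of those numbers: DJ17, DJ20, DJ21 and DJ22 for control hippocampus, DJ15, DJ16, DJ18 and DJ19 for knockout hippocampus, DJ3, DJ6, DJ7 and DJ8 for control cortex, and DJ1, DJ2, DJ4 and DJ5 for knockout cortex.

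Of 21999 genes in the table, 13881 had a mean of at least 0.5 CPM and were tested. The genotype effect differed between the regions for 378 of them (2.72%; limma, Benjamini-Hochberg adjusted p below 0.05, here "called"), with 163 interactions above 0 (1.17%) and 215 below 0 (1.55%). Without control hippocampus DJ17 the count was 699, with 372 above 0 and 327 below 0, and without control hippocampus DJ20 it was 248. Among the 378, 24 genes were called in both regions with opposite signs (0.173%), 77 in hippocampus and not in cortex (0.555%), 236 in cortex and not in hippocampus (1.7%), 10 in both with the same sign (0.072%), and 31 in neither region (0.223%). Adjustment was made for each contrast on its own, so effects of like size against their SE could be called in cortex and not in hippocampus. By limma, Rorb in hippocampus (0.356, SE 0.110) had an adjusted p of 0.0932, and Me3 in cortex (-0.237, SE 0.074) one of 0.0451. Without DJ17 the opposite class held 39 genes and without DJ20 it held 14. It held 15 without control cortex DJ7 or knockout hippocampus DJ19. The 24 genes themselves kept a called interaction in all 27 alternatives that refit it (16 of them leave out 1 library), and opposite point estimates in each that gives both effects, while Fem1b (-0.45) lies under an absolute interaction of at least 0.5. The same-sign class held 5 or 6 genes without DJ2, DJ6, DJ8, DJ16, DJ19 or DJ20, and the class called in neither region held 77 without DJ17, 13 without DJ20 and 17 to 20 without DJ3, DJ4, DJ5, DJ21 or DJ22. Of the 168 genes called in both regions, 144 moved in the same direction, and 10 of those 144 had a called interaction.

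FOXP1 is a forkhead transcription factor that acts mainly as a repressor and can form dimers with its relatives FOXP2 and FOXP4. Hippocampus and cortex are both built around glutamatergic neurons, but of different classes: CA pyramidal cells and dentate granule cells in hippocampus, and layered projection neurons in cortex. In these bulk libraries, fewer cells of a type and less RNA per cell cannot be told apart.

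Promoters are shown for Fgf10, Sorcs3, Hpse and Htr2a, to place region-dependent genes in the genome. They were picked by hand among members of the opposite class with an entry in the RefSeq promoter table (GRCm38.p6, 250 bases before to 50 after a listed start). Ptgs2 (interaction -1.41) also has an entry and is not shown, though its interaction is larger in size than that of Htr2a (1.33). Of the 24 genes, 16 matched an entry. Capitals mark a forkhead core motif, TGTTTAC, searched on both strands together with TATTTAT and TATTTGT. The stretches of Fgf10 (chr13:118714449-118714748, + strand), Sorcs3 (chr19:48205775-48206074, + strand), Hpse (chr5:100719667-100719966, - strand) and Htr2a (chr14:74640624-74640923, + strand) are each written 5′ to 3′ on the strand of the gene.
Fgf10: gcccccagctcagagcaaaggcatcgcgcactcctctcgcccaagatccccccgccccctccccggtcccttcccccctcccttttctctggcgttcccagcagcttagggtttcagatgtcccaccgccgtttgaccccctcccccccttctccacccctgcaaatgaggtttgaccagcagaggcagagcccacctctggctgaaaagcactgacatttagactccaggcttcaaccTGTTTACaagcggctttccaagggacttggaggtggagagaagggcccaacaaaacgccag
Sorcs3: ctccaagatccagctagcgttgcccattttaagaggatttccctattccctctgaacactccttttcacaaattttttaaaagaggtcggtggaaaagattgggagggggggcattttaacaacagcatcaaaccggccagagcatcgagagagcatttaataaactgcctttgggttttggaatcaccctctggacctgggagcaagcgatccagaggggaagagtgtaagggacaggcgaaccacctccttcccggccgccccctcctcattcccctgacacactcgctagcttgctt
Hpse: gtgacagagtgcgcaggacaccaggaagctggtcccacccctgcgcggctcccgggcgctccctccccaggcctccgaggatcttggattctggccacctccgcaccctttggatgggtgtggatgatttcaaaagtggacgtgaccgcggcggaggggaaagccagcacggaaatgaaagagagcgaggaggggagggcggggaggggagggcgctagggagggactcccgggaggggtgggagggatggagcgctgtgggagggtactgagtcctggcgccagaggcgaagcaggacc
Htr2a: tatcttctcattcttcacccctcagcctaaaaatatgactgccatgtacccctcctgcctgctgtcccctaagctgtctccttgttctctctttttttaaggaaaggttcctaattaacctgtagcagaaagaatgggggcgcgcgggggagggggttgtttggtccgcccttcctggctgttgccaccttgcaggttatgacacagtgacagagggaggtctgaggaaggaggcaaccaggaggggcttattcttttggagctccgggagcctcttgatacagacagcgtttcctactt
Of the 16 stretches, 1 (6.25%), that of Fgf10, held any of the 3 motifs, with TGTTTAC at position -11 from the listed start. The share was 6.53% over the promoters of 10652 tested genes. Among genes called in hippocampus and not in cortex it was 3 of 55 (5.45%), and among genes called in cortex and not in hippocampus 6 of 170 (3.53%). A match describes letters in this window and not a binding site.

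Foxp1 (GRCm38, chr6:98925338-99522721, - strand) fell in both regions, and the difference between the falls was not called. Control hippocampus held 276, 248, 214 and 171 CPM and knockout hippocampus 113, 102, 139.9 and 121 CPM, while control cortex held 265, 298, 288 and 286 CPM and knockout cortex 96.0, 108, 105 and 144 CPM. Knockout and control libraries did not overlap in either region. The log2 change was -0.92 in hippocampus (adjusted p = 0.000252) and -1.34 in cortex (adjusted p = 1.2e-06). The interaction was 0.42 (SE 0.18, adjusted p = 0.297), with an unadjusted 95% interval of 0.04 to 0.80 that lies above 0. Its relatives Foxp2 (interaction 0.46, SE 0.39, adjusted p = 0.714) and Foxp4 (interaction -0.12, SE 0.21, adjusted p = 0.893) had no called interaction either.

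**Figure D1:**
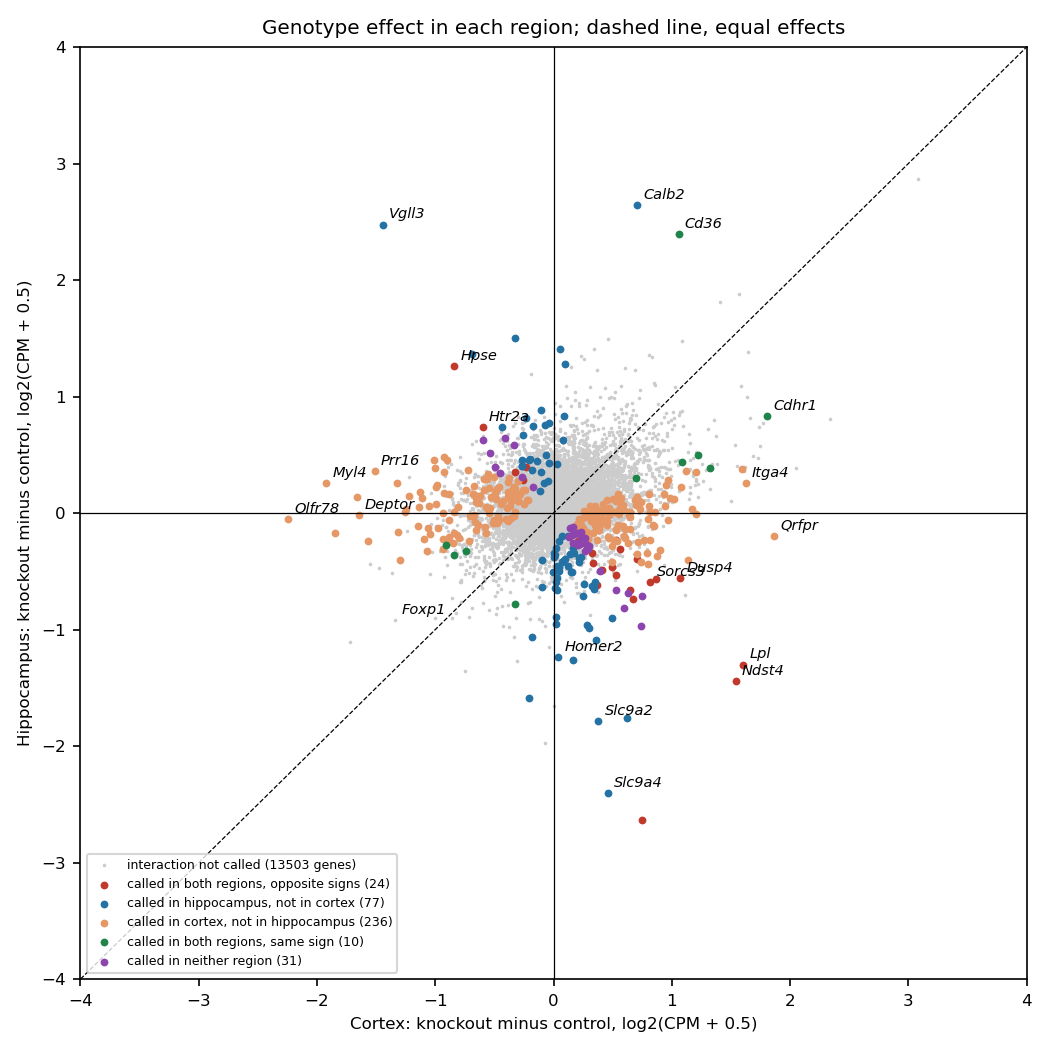
Genotype effect of each tested gene in cortex and in hippocampus, as knockout minus control on the log2(CPM + 0.5) scale; grey points had no called interaction, colours mark the 5 classes, and the dashed line marks equal effects. Lpl, Ndst4, Dusp4 and Sorcs3 fell in hippocampus and rose in cortex, Hpse and Htr2a did the reverse, and the 236 genes called in cortex and not in hippocampus had a median absolute hippocampal effect of 0.13.

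The plot of effects in the regions shows that 19 of the 24 opposite genes fell in hippocampus and rose in cortex. Lpl, which encodes the lipase that frees fatty acids from lipoprotein triglycerides (chr8:68880491-68907448, + strand), stood apart in both regions. Control hippocampus held 137, 123, 104 and 116 CPM and knockout hippocampus 46.2, 55.7, 46.4 and 45.3 CPM, while control cortex held 35.5, 29.3, 35.9 and 28.0 CPM and knockout cortex 121, 96.3, 82.3 and 96.2 CPM. No knockout library overlapped with the controls of its region, and the order of the regions was inverted in the knockouts. The log2 changes were -1.30 in hippocampus and 1.60 in cortex, and the interaction was -2.90 (SE 0.16, adjusted p = 9.76e-10).

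Ndst4, an N-deacetylase and N-sulfotransferase that modifies heparan sulfate chains (chr3:125404076-125728899, + strand), had the same pattern. Control hippocampus held 64.3, 61.2, 56.3 and 57.6 CPM and knockout hippocampus 25.7, 24.9, 15.6 and 22.1 CPM, while control cortex held 4.73, 3.43, 15.3 and 12.8 CPM and knockout cortex 25.8, 39.2, 20.3 and 13.7 CPM. The hippocampal groups were separate, while knockout cortex DJ5 lay below control cortex DJ7. The log2 changes were -1.44 and 1.54, and the interaction was -2.98 (SE 0.48, adjusted p = 0.0012).

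Fgf10, a secreted fibroblast growth factor (chr13:118669791-118792115, + strand), carries the motif shown above. The window of that motif lies inside this gene span, downstream of its 5′ end. Fgf10 was separate between genotypes in each region. Control hippocampus held 20.8, 28.3, 23.1 and 24.2 CPM and knockout hippocampus 15.1, 14.5, 19.2 and 15.7 CPM, while control cortex held 9.60, 11.6, 11.2 and 10.6 CPM and knockout cortex 20.7, 20.1, 20.7 and 18.3 CPM. The interaction was -1.43 (SE 0.15, adjusted p = 2.3e-05). Dusp4, a phosphatase of mitogen-activated protein kinases, was separate too. Control hippocampus held 12.5, 10.6, 11.3 and 10.7 CPM and knockout hippocampus 6.50, 8.79, 7.32 and 7.54 CPM, while control cortex held 5.01, 4.87, 5.51 and 6.67 CPM and knockout cortex 10.8, 11.3, 16.4 and 10.6 CPM. Its interaction was -1.63 (SE 0.21, adjusted p = 9.05e-05). Ptgs2, the inducible cyclooxygenase that starts prostaglandin synthesis, was at 58.1 to 69.0 CPM in control and 29.1 to 48.7 CPM in knockout hippocampus, and at 26.0 to 31.4 CPM in control and 40.9 to 51.6 CPM in knockout cortex (interaction -1.41, SE 0.17, adjusted p = 5.33e-05).

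Sorcs3, a sorting receptor of the VPS10 family (chr19:48206025-48805505, + strand), differed little between the regions in controls and much in knockouts. Control hippocampus held 66.5, 79.9, 78.7 and 76.1 CPM and knockout hippocampus 54.3, 49.3, 41.8 and 54.0 CPM, while control cortex held 65.8, 67.8, 67.7 and 67.4 CPM and knockout cortex 128, 114, 115 and 119 CPM. Genotypes were separate in both regions. The regions differed by 0.16 (95% interval 0.00 to 0.32) in controls, not called, and by -1.25 in knockouts on the log2 scale, and the interaction was -1.41 (SE 0.11, adjusted p = 2.46e-07). Plk2, a polo-like kinase whose gene responds to neuronal activity, had a like pattern, at 172 to 218 CPM in control hippocampus, 175 to 183 CPM in control cortex, 128 to 146 CPM in knockout hippocampus and 245 to 272 CPM in knockout cortex (interaction -1.06, SE 0.10, adjusted p = 2.62e-06). Ccnd1, the gene of cyclin D1, was at 58.9 to 76.3 CPM in control hippocampus, 54.4 to 68.5 CPM in control cortex, 35.9 to 52.7 CPM in knockout hippocampus and 69.6 to 95.4 CPM in knockout cortex (interaction -0.90, SE 0.18, adjusted p = 0.00632). These 3 genes had no called difference between the control regions.

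Dgkb, diacylglycerol kinase beta, had narrow groups, at 528 to 587 CPM in control and 339 to 384 CPM in knockout hippocampus and 316 to 342 CPM in control and 408 to 465 CPM in knockout cortex (interaction -0.99, SE 0.08, adjusted p = 2.46e-07). Cpne4, a copine that binds phospholipids when calcium is present, had an interaction of -0.95 (SE 0.12, adjusted p = 8.26e-05). Htr4, a serotonin receptor coupled to Gs, was at 18.1 to 24.3 CPM in control and 11.3 to 16.1 CPM in knockout hippocampus, against 0.565 to 1.39 CPM in control and 1.35 to 2.07 CPM in knockout cortex, where the groups overlapped (interaction -1.31, SE 0.25, adjusted p = 0.00632). Dpp6, an auxiliary subunit of Kv4 potassium channels, was at 314 to 362 CPM in control and 273 to 306 CPM in knockout hippocampus, and at 211 to 217 CPM in control and 251 to 263 CPM in knockout cortex (interaction -0.54, SE 0.07, adjusted p = 0.000208).

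Further genes of this direction were Peak1 (a pseudokinase, -1.10, SE 0.14, adjusted p = 0.000144), Phactr2 (a regulator of phosphatase and actin, -0.87, SE 0.12, adjusted p = 0.000208), Ncdn (-0.76, SE 0.10, adjusted p = 8.34e-05), Nell2 (-0.76, SE 0.09, adjusted p = 3.28e-05), Fem1b (-0.45, SE 0.09, adjusted p = 0.00632) and the clone gene 1700024P16Rik. The last ran from 9.65 to 13.4 CPM in control to 0.925 to 2.01 CPM in knockout hippocampus and from 2.77 to 4.95 CPM in control to 5.02 to 8.33 CPM in knockout cortex, with an interaction of -3.38 (SE 0.30, adjusted p = 1.92e-06). Hippocampal groups overlapped for Peak1 and Nell2. Over all 24 opposite genes, knockout and control libraries did not overlap in hippocampus for 22 (7.99% of all tested genes) and in cortex for 21 (17.5% of all tested genes), in a class that calls in both regions define. Members beyond the largest interactions in each direction were named after their values were seen.

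**Figure D2:**
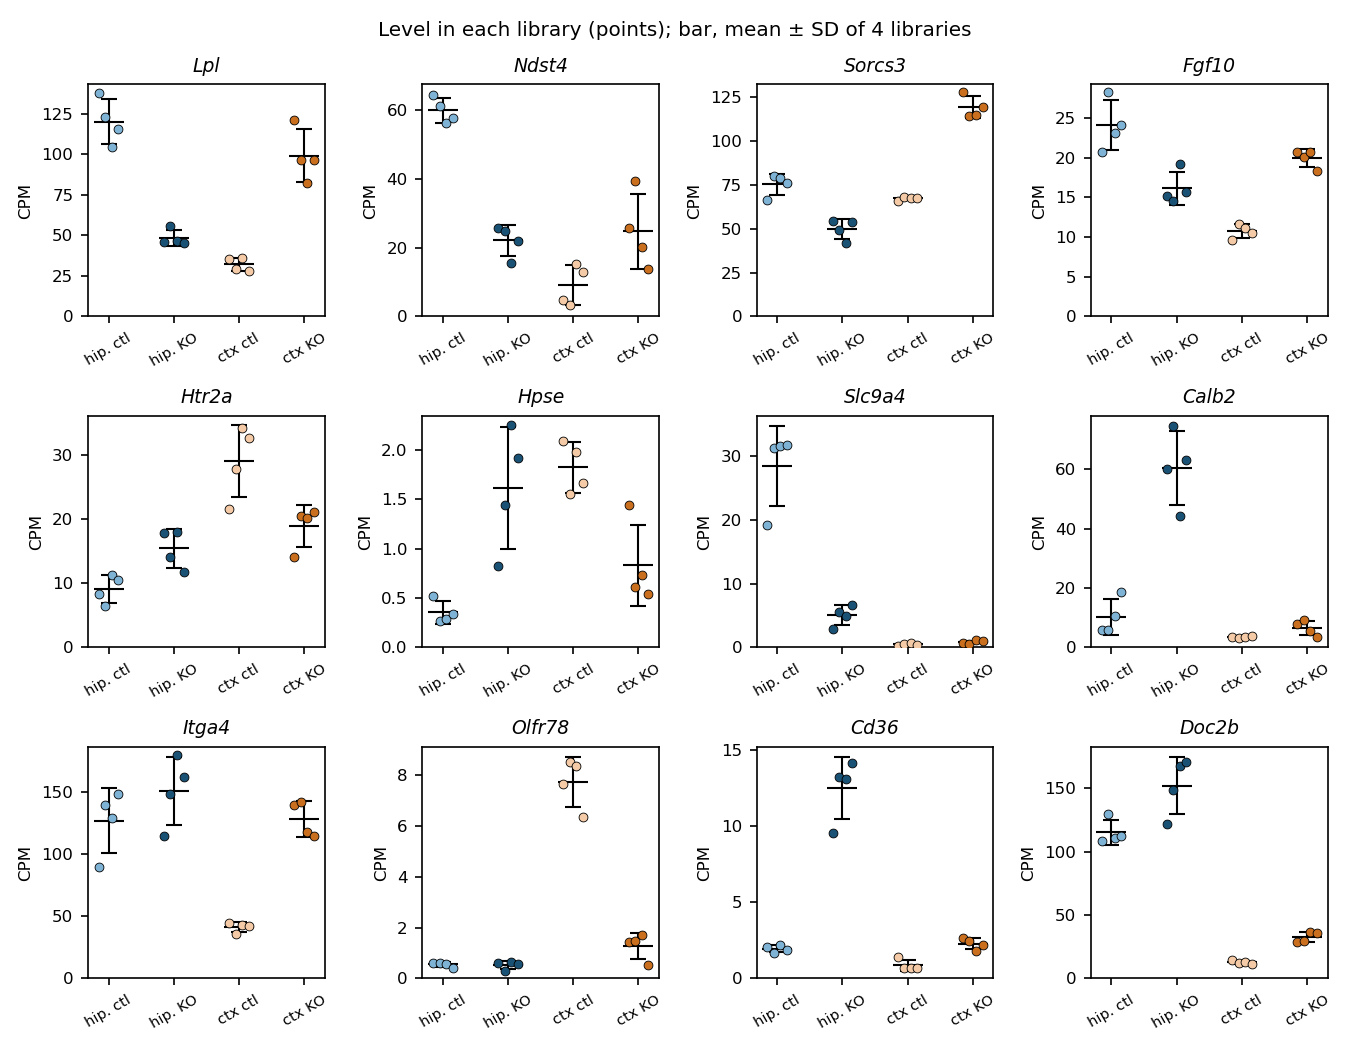
Level of 12 genes in each library in CPM; points are libraries, and bars give the mean and SD of 4 libraries in control and knockout hippocampus and cortex. Lpl, Ndst4, Sorcs3 and Fgf10 fell in hippocampus and rose in cortex, Htr2a and Hpse did the reverse, and the other genes represent calls in 1 region or in the same direction.

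The reverse pattern, a rise in hippocampus and a fall in cortex, held for 5 genes. Htr2a, the Gq-coupled serotonin 2A receptor (chr14:74640840-74709494, + strand), was separate between genotypes in both regions. Control hippocampus held 8.35, 6.45, 11.3 and 10.5 CPM and knockout hippocampus 17.8, 14.1, 17.97 and 11.8 CPM, while control cortex held 21.6, 27.8, 34.2 and 32.6 CPM and knockout cortex 14.0, 20.5, 20.1 and 21.2 CPM. The control difference between the regions of -1.62 was -0.29 in knockouts, and the interaction was 1.33 (SE 0.26, adjusted p = 0.00593). The serotonin receptor genes Htr2a and Htr4 were thus in the opposite class with opposite directions. Hpse, the heparanase that cleaves heparan sulfate (chr5:100679484-100719716, - strand), had few reads, since 1 read was worth 0.0675 to 0.144 CPM. Control hippocampus held 0.522, 0.269, 0.291 and 0.337 CPM and knockout hippocampus 0.827, 1.44, 2.25 and 1.92 CPM, while control cortex held 2.09, 1.55, 1.98 and 1.67 CPM and knockout cortex 1.44, 0.613, 0.732 and 0.546 CPM. Genotypes did not overlap, and the interaction was 2.10 (SE 0.35, adjusted p = 0.00143).

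The other 3 had smaller interactions. Me3, a mitochondrial malic enzyme, was at 34.0 to 35.3 CPM in control and 44.5 to 47.1 CPM in knockout hippocampus, and at 36.4 to 43.2 CPM in control and 30.4 to 38.0 CPM in knockout cortex, where the groups overlapped (interaction 0.63, SE 0.10, adjusted p = 0.00143). Sccpdh was at 61.1 to 76.3 CPM in control and 82.3 to 91.5 CPM in knockout hippocampus, and at 63.5 to 70.2 CPM in control and 50.7 to 54.8 CPM in knockout cortex (interaction 0.68, SE 0.10, adjusted p = 0.000359). Herc6, of the HERC family of ubiquitin ligases, was higher in cortex in both genotypes, at 53.7 to 61.0 CPM in control cortex and 12.3 to 14.5 CPM in control hippocampus (interaction 0.55, SE 0.11, adjusted p = 0.00678).

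Of the 77 genes called in hippocampus and not in cortex, 29 rose and 48 fell in hippocampus, and for 66 the cortical point estimate had the other sign. The class requires a called interaction, which by itself favours point estimates of opposite sign. Among the 236 genes called in cortex and not in hippocampus, 154 had a hippocampal point estimate of the other sign. In all, 446 genes were called in hippocampus (3.21%) and 1428 in cortex (10.3%). Slc9a4 and Slc9a2, genes of sodium/proton exchangers that lie near each other on chromosome 1 (chr1:40580081-40630725, + strand, and chr1:40680574-40769273, + strand), fell in hippocampus. For Slc9a4, the first of the pair, libraries differed by genotype in hippocampus. Control hippocampus held 19.1, 31.2, 31.6 and 31.7 CPM and knockout hippocampus 2.95, 5.62, 4.91 and 6.69 CPM, while control cortex held 0.278, 0.553, 0.707 and 0.445 CPM and knockout cortex 0.774, 0.613, 1.10 and 0.982 CPM. The hippocampal groups were far apart and every cortical library was low. The change was -2.40 in hippocampus and 0.46 (95% interval -0.01 to 0.93) in cortex, with an interaction of -2.86 (SE 0.32, adjusted p = 2.99e-05). Slc9a2 was at 29.0 to 45.6 CPM in control and 8.27 to 12.6 CPM in knockout hippocampus, with cortical libraries from 1.66 to 5.02 CPM (interaction -2.16, SE 0.32, adjusted p = 0.000442). Stac, an adaptor of voltage-gated calcium channels, was at 1.96 to 3.20 CPM in control and 0.288 to 0.709 CPM in knockout hippocampus and changed in cortex by 0.62 (95% interval 0.04 to 1.21), not called (interaction -2.38, SE 0.40, adjusted p = 0.00148). Grem1, a secreted antagonist of bone morphogenetic proteins, was at 13.6 to 16.7 CPM in control and 5.67 to 8.07 CPM in knockout hippocampus and had a cortical value of 0.35 (95% interval -0.07 to 0.78) (interaction -1.44, SE 0.29, adjusted p = 0.00777).

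Rises called in hippocampus and not in cortex were led by Vgll3, Bace2, Calb2 and Fibin. Calb2, the gene of the calcium-binding protein calretinin, was well apart between genotypes in hippocampus. Control hippocampus held 5.74, 5.91, 10.5 and 18.8 CPM and knockout hippocampus 60.1, 74.6, 44.3 and 63.1 CPM, while control cortex held 3.62, 3.32, 3.67 and 3.78 CPM and knockout cortex 7.74, 9.19, 5.61 and 3.60 CPM. The cortical change was 0.71 (95% interval 0.11 to 1.31), not called, and the interaction was 1.93 (SE 0.41, adjusted p = 0.011) by limma and not called by edgeR on recovered reads. Vgll3, a cofactor of TEAD transcription factors, had a large interaction with overlapping hippocampal groups. Control hippocampus held 2.40, 1.70, 5.89 and 25.2 CPM and knockout hippocampus 30.5, 50.7, 18.4 and 33.1 CPM, while control cortex held 3.34, 6.97, 4.81 and 5.67 CPM and knockout cortex 2.54, 1.72, 1.22 and 0.982 CPM. Control hippocampus DJ22 lay among the knockouts, the cortical groups did not overlap, and the cortical change of -1.44 (95% interval -2.50 to -0.38) was not called. Its interaction was 3.92 (SE 0.72, adjusted p = 0.00424). Bace2, an aspartyl protease related to beta-secretase, was at 1.88 to 4.99 CPM in control and 5.91 to 10.9 CPM in knockout hippocampus (interaction 2.06, SE 0.40, adjusted p = 0.00632), and Fibin was at 2.30 to 5.67 CPM and 7.32 to 16.2 CPM (interaction 1.83, SE 0.36, adjusted p = 0.0064).

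The class called in cortex and not in hippocampus held 119 rises and 117 falls in cortex. Itga4, the integrin alpha 4 subunit, rose in cortex. Control hippocampus held 89.6, 139.7, 129 and 149 CPM and knockout hippocampus 115, 148, 179.6 and 162 CPM, while control cortex held 44.8, 35.6, 43.0 and 41.9 CPM and knockout cortex 140.0, 142, 118 and 114 CPM. The cortical groups were separate and knockout cortex reached the range of control hippocampus, while the hippocampal change was 0.26 (95% interval -0.03 to 0.55). The interaction was -1.36 (SE 0.20, adjusted p = 0.000385). Qrfpr, a receptor of an RFamide neuropeptide, was at 1.39 to 2.78 CPM in control and 8.66 to 10.3 CPM in knockout cortex, with hippocampal libraries from 1.44 to 3.05 CPM (interaction -2.06, SE 0.29, adjusted p = 0.000246). Dgkg, diacylglycerol kinase gamma, was at 33.1 to 39.4 CPM in control and 51.3 to 77.9 CPM in knockout cortex, with a hippocampal change of -0.37 (95% interval -0.69 to -0.04) (interaction -1.24, SE 0.22, adjusted p = 0.00276). Rgs14, a regulator of G protein signalling known as a CA2 marker, was at 9.18 to 14.3 CPM in control and 18.6 to 23.4 CPM in knockout cortex, with a hippocampal change of -0.44 (95% interval -0.78 to -0.09) (interaction -1.23, SE 0.23, adjusted p = 0.00498). Cpne6, a copine chosen after its values were seen, was at 24.8 to 27.7 CPM in control and 57.2 to 65.8 CPM in knockout cortex, and at 101 to 152 CPM in control and 121 to 140.2 CPM in knockout hippocampus (interaction -1.21, SE 0.14, adjusted p = 3.21e-05).

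Among the falls in cortex, Olfr78, Myl4, Prr16 and Rxfp2 had the largest interactions of those named. Olfr78, of the olfactory receptor family, was separate between genotypes in cortex and low in hippocampus. Control hippocampus held 0.626, 0.627, 0.582 and 0.405 CPM and knockout hippocampus 0.591, 0.288, 0.665 and 0.569 CPM, while control cortex held 7.66, 8.52, 8.34 and 6.34 CPM and knockout cortex 1.44, 1.47, 1.71 and 0.546 CPM. The hippocampal change was -0.05 (95% interval -0.52 to 0.41) and the interaction 2.19 (SE 0.32, adjusted p = 0.000385). Myl4, a myosin light chain, was at 9.75 to 13.5 CPM in control and 2.29 to 3.31 CPM in knockout cortex, with hippocampal libraries from 0.626 to 2.36 CPM (interaction 2.18, SE 0.32, adjusted p = 0.000411). Prr16 was at 19.9 to 26.3 CPM in control and 5.13 to 10.7 CPM in knockout cortex (interaction 1.87, SE 0.23, adjusted p = 6.52e-05). In hippocampus it was at 5.73 to 6.37 CPM in controls and 6.65 to 8.62 CPM in knockouts, without overlap. That hippocampal change of 0.36 (95% interval 0.03 to 0.70) was not called. Rxfp2, a receptor of relaxin-family peptides, was at 4.04 to 5.37 CPM in control and 0.553 to 1.64 CPM in knockout cortex, with hippocampal libraries from 0.288 to 1.54 CPM (interaction 1.80, SE 0.39, adjusted p = 0.0135). Hippocampus minus cortex in controls was -2.95 for Olfr78, -3.12 for Myl4, -1.80 for Prr16 and -2.11 for Rxfp2, so all 4 were genes of higher control level in cortex.

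In 10 genes the interaction was a difference of size in a shared direction. Cd36, a fatty acid translocase, rose in both regions. Control hippocampus held 2.09, 1.70, 2.18 and 1.89 CPM and knockout hippocampus 9.57, 13.3, 13.1 and 14.2 CPM, while control cortex held 1.39, 0.664, 0.707 and 0.667 CPM and knockout cortex 2.65, 2.45, 1.83 and 2.18 CPM. Groups did not overlap in either region, and the rise was 2.39 in hippocampus and 1.06 in cortex on a scale that understates changes of low genes. The interaction was 1.33 (SE 0.26, adjusted p = 0.00678), and it was not called by edgeR. Cdhr1, a cadherin-related protein, changed by 0.83 in hippocampus and 1.80 in cortex (interaction -0.97, SE 0.21, adjusted p = 0.014). Doc2b, a calcium sensor of vesicle release, was at 108 to 129.7 CPM in control and 122 to 170.5 CPM in knockout hippocampus, which overlapped, and at 11.8 to 14.2 CPM in control and 28.9 to 37.0 CPM in knockout cortex (interaction -0.94, SE 0.15, adjusted p = 0.000992). Pcdh8, a protocadherin, changed by 0.50 in hippocampus and 1.22 in cortex (interaction -0.72, SE 0.15, adjusted p = 0.0117). With neither region called, Slitrk6 (interaction -1.71, SE 0.44, adjusted p = 0.0405) and Atg9b (interaction -1.47, SE 0.36, adjusted p = 0.0314) lost their call in 14 and 11 of the 27 alternatives.

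Control expression stands beside the interaction here with a limit: the control libraries enter the interaction and the control difference between regions with opposite weights, so the counts describe these libraries. In controls, 5273 genes differed between the regions (38%), 2953 of them higher in hippocampus (21.3%) and 2320 higher in cortex (16.7%). Of the 2953, 168 had a called interaction, 10 above 0 and 158 below 0. Of the 2320, 139 had one, 121 above 0 and 18 below 0. The 8608 genes with no called control difference held 71, of which 32 were above 0 and 39 below 0. Without DJ17 the 121 became 195, without DJ20 they became 74, and without control cortex DJ6 or DJ8 they became 75 or 78.

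A mean over both genotypes has weights orthogonal to the interaction. By that measure 7027 genes differed between the regions (50.6%). Of 4063 genes higher in hippocampus (29.3%), 161 had a called interaction, 34 above 0 and 127 below 0. Of 2964 genes higher in cortex (21.4%), 139 had one, 95 above 0 and 44 below 0. In the knockouts alone, where 5181 genes differed between the regions (37.3%), 60 interactions were above 0 and 73 below 0 among genes higher in hippocampus, and 57 above 0 and 79 below 0 among genes higher in cortex; the knockout libraries enter that split with weights of the same sign as in the interaction.

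In the opposite class, 16 of the 19 genes that fell in hippocampus and rose in cortex were called higher in control hippocampus and 0 higher in control cortex. Of the 5 with the reverse pattern, 4 were called higher in control cortex, and Sccpdh had no called control difference. Among the 48 falls called in hippocampus and not in cortex, 39 were of genes higher in control hippocampus, 6 of genes higher in control cortex and 3 of genes with no called difference. Of the 119 rises called in cortex and not in hippocampus, 81 were of genes higher in control hippocampus, and of the 117 falls 93 were of genes higher in control cortex. Chrm3, the muscarinic M3 receptor, and Nptx2, neuronal pentraxin 2, ran the other way: they were lower in control hippocampus than in control cortex, with differences of -0.32 and -0.85 on the log2 scale, and fell in hippocampus. These control splits carry the limit of shared control libraries. By the mean over both genotypes, 13 of the 19 were called higher in hippocampus and 3 higher in cortex, and of the 5 it was 1 and 2. Of the 48 hippocampal falls it was 30 and 8. By that mean, 68 of the 119 cortical rises were of genes higher in hippocampus, and 70 of the 117 falls of genes higher in cortex.

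The difference between hippocampus and cortex was smaller in knockouts than in controls for 174 of the 378 genes, changed sign for 154 and was larger for 50. Its median size was 0.67 in controls and 0.41 in knockouts on the log2 scale. These genes were selected with the controls in the test. Over all tested genes, where control and knockout counts share no library, a difference of at least 1 was found for 1041 genes in controls and 962 in knockouts, and one of at least 2 for 243 and 190. Genes higher in cortex by at least 1 numbered 417 in controls and 327 in knockouts, and genes higher in hippocampus by at least 1 numbered 624 and 635. These counts were not tested.

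**Figure D3:**
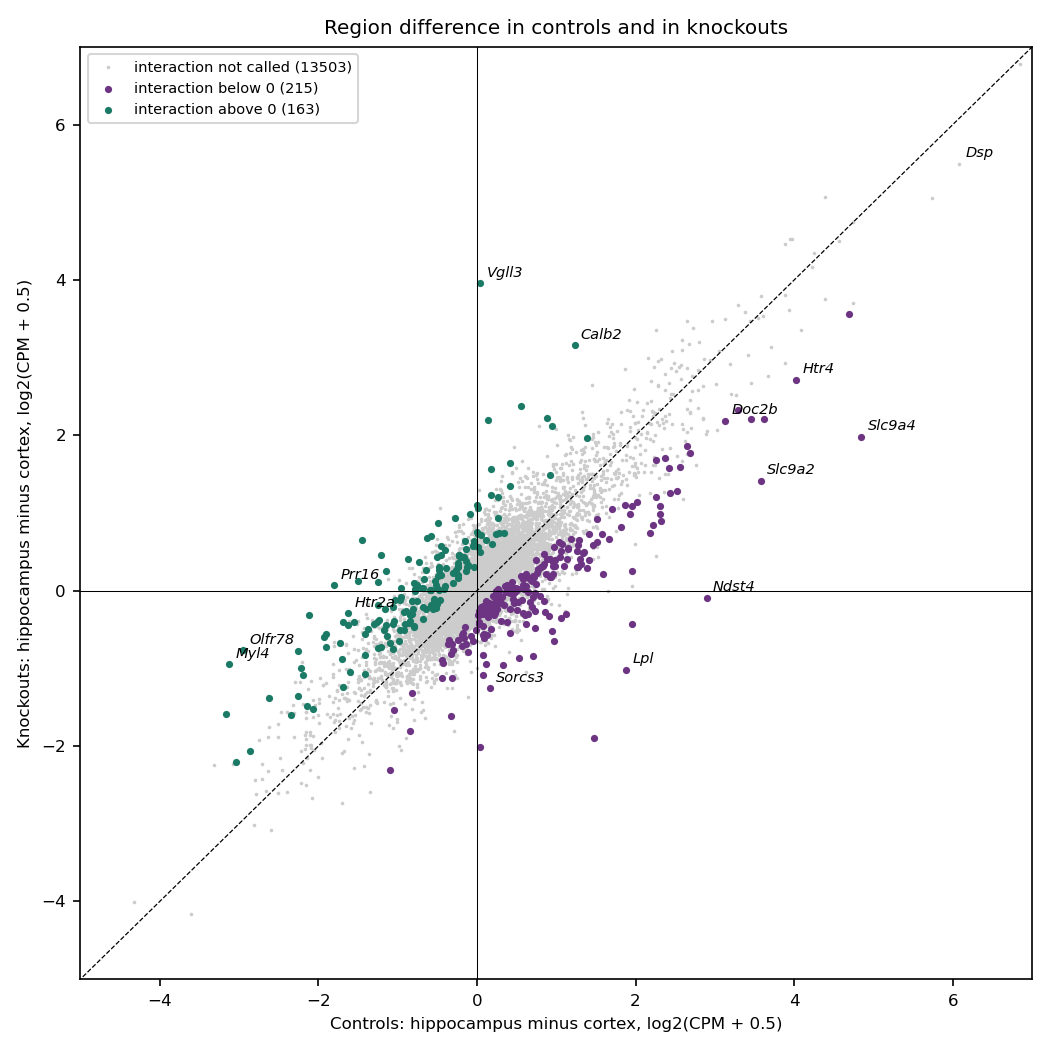
Hippocampus minus cortex on the log2(CPM + 0.5) scale in controls and in knockouts for each tested gene; the dashed line marks equal differences, green points have a called interaction above 0 (163 genes) and purple points one below 0 (215 genes). Lpl went from 1.88 to -1.02 and Ndst4 from 2.90 to -0.09; the control libraries enter both the control axis and the colour.

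The plot of region differences also holds genes that stayed hippocampal. Doc2b went from 3.13 in controls to 2.19 in knockouts, Htr4 from 4.03 to 2.72 and Npy2r, a neuropeptide Y receptor, from 4.69 to 3.56. Deptor, an inhibitor of mTOR, went from -1.50 to 0.13 and Prr16 from -1.80 to 0.07, where the knockout difference was not called.

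Calls among markers of hippocampal subfields were mostly below 0, as were 215 of the 378 over all genes. For these and the following lists, the number called stands against 2.72% called over all genes tested. Where leaving out 1 library moved a list's number of calls by over 1.5 times, the number without it is given after the list's counts. Of 14 CA1 pyramidal markers tested, 5 were called, all below 0, with a list median of -0.60 against 0.02 over all genes tested. The count was 2 without DJ3, DJ4, DJ6 or DJ20 and 3 without DJ1, DJ2, DJ5, DJ7, DJ8, DJ15, DJ16, DJ21 or DJ22. Man1a, a Golgi mannosidase, was at 162 to 201 CPM in control and 114 to 136 CPM in knockout hippocampus and changed in cortex by 0.02 (95% interval -0.13 to 0.17) (interaction -0.61, SE 0.10, adjusted p = 0.00143). Fibcd1 was called in neither region and lost its call in 8 of 27 alternatives (interaction -1.41, SE 0.34, adjusted p = 0.0258). Of 18 CA2 and CA3 markers, 4 were called, all below 0, with a median of -0.43 (2 without DJ8 or DJ21 and 7 without DJ17). They included Rgs14, Cpne4 and Necab2, a calcium-binding protein that rose in cortex (interaction -0.86, SE 0.20, adjusted p = 0.022; call lost in 2 of 27 alternatives). Of 19 dentate granule markers, 2 were called below 0 and 1 above 0, with a median of -0.39. Rfx3, a transcription factor of cilia genes, rose in cortex (119 to 131 CPM in controls and 210.3 to 232 CPM in knockouts; interaction -0.85, SE 0.11, adjusted p = 0.000106), as did Stxbp6 (interaction -0.53, SE 0.10, adjusted p = 0.00451), while Npnt fell there (interaction 0.72, SE 0.18, adjusted p = 0.0398; call lost in 15 of 27 alternatives). Of 12 subiculum and retrohippocampal markers, 1 was called, Lxn (interaction -0.56, SE 0.13, adjusted p = 0.0171), and the count was 2 without DJ15 or DJ20 and 3 without DJ17.

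The summed level of the dentate markers moved with genotype in cortex, at 1069 to 1104 CPM in controls and 1496 to 1616 CPM in knockouts, as did that of the CA1 markers, at 894 to 928 CPM and 1025 to 1109.6 CPM. Cortical genotypes overlapped for the CA2 and CA3 sum (793 to 823 CPM and 754 to 835 CPM) and the subiculum sum (446 to 579 CPM and 545 to 615 CPM). Hippocampal genotypes overlapped for the dentate sum (1684 to 2131 CPM and 1829.6 to 2062 CPM) and the CA1 sum (919 to 1206 CPM and 848 to 933 CPM). Of the 19 dentate markers, 8 rose and 1 fell in cortex, against 2 that rose and 1 that fell in hippocampus. Cortex had more calls over all genes tested too, with 5.94% called rises and 4.34% called falls. Hippocampus had 1.66% called rises and 1.56% called falls. Prox1, Dsp and C1ql2, chosen after their values were seen, were among those not called in cortex, where Dsp was at 0 to 0.664 CPM, C1ql2 at 0 to 0.366 CPM and Prox1 at 28.1 to 32.6 CPM over the 8 libraries.

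Of 18 upper layer and layer 4 markers, 3 were called above 0 and 1 below 0, with a median of -0.02. The count was 2 without DJ1, DJ2, DJ4, DJ6, DJ7, DJ8, DJ16, DJ19 or DJ21. In this list 7 genes rose and 3 fell in cortex, and 4 rose and 0 fell in hippocampus. The shares over all genes tested were 5.94% rises and 4.34% falls in cortex, and 1.66% rises and 1.56% falls in hippocampus. Its summed level did not overlap between genotypes in either region, at 1753 to 1901 CPM in control and 2182 to 2323 CPM in knockout cortex and at 931 to 1076 CPM in control and 1086 to 1401 CPM in knockout hippocampus. The 3 calls above 0 were cortical falls. Rorb, a nuclear receptor of layer 4 neurons, fell in cortex. Control hippocampus held 93.7, 72.1, 66.4 and 64.7 CPM and knockout hippocampus 106, 100.1, 75.1 and 98.0 CPM, while control cortex held 231, 228, 222 and 272 CPM and knockout cortex 123, 128, 114 and 134 CPM. The cortical groups were separate and the hippocampal groups overlapped, with an interaction of 1.29 (SE 0.16, adjusted p = 6.52e-05). Whrn, a scaffold protein, fell in cortex (interaction 0.93, SE 0.20, adjusted p = 0.0127), as did Scnn1a, an epithelial sodium channel subunit used as a layer 4 marker, whose call was lost in 14 of 27 alternatives (interaction 1.39, SE 0.36, adjusted p = 0.0404). Of 22 deep layer markers, 3 were called, all above 0, with a median of 0.31 (5 without DJ15). Deptor was at 75.3 to 86.4 CPM in control and 24.1 to 25.8 CPM in knockout cortex, and its hippocampal change was -0.02 (95% interval -0.25 to 0.22) (interaction 1.63, SE 0.16, adjusted p = 4.62e-06). Etv1 and Tbr1, transcription factors of deep layer neurons, rose in hippocampus (interactions 0.93, SE 0.17, adjusted p = 0.00473, and 0.66, SE 0.16, adjusted p = 0.0249), with cortical changes of -0.26 (95% interval -0.52 to -0.01) and -0.20 (95% interval -0.43 to 0.03). The hippocampal groups overlapped for Tbr1, whose interaction lost its call in 7 of 27 alternatives. The upper layer gene Cux2 (interaction -0.02, SE 0.21, adjusted p = 0.987), chosen after its values were seen, had no called interaction.

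**Figure D4:**
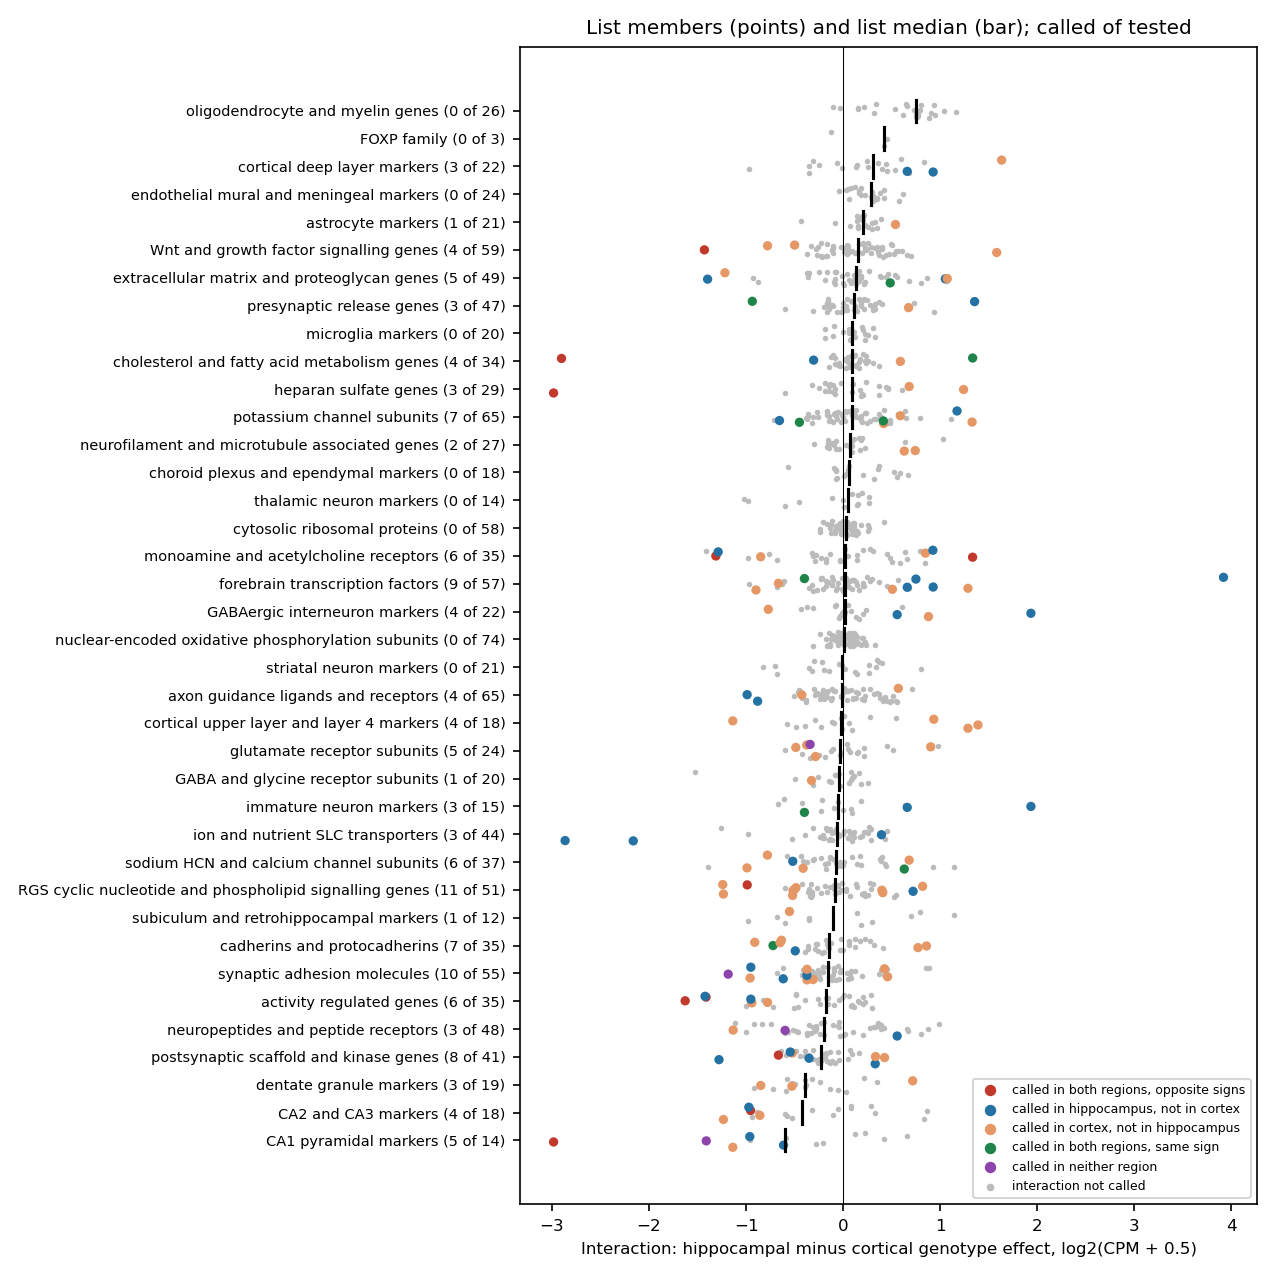
Interaction of each tested member (points) of the gene lists, with the list median (bar) and the number called of the number tested; coloured points had a called interaction and grey points had none. The CA1 list has a median of -0.60, the deep layer list one of 0.31, and the myelin list one of 0.75 with 0 members called.

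Ion channel genes were called in both directions. Of 65 potassium channel subunits, 5 were called above 0 and 2 below 0 (12 without DJ17). Kcnab3, an auxiliary beta subunit of Kv channels, fell in cortex. Control hippocampus held 12.9, 12.0, 14.3 and 15.2 CPM and knockout hippocampus 14.8, 10.9, 9.23 and 11.2 CPM, while control cortex held 42.7, 60.5, 54.1 and 55.5 CPM and knockout cortex 16.9, 18.5, 17.6 and 16.9 CPM. The cortical groups were separate and the interaction was 1.33 (SE 0.18, adjusted p = 0.000195). Kcna2, a Kv1 channel of axons, was at 705 to 832 CPM in control and 484 to 583 CPM in knockout cortex (interaction 0.42, SE 0.09, adjusted p = 0.00997). Kcnd2, a Kv4 channel of the kind that Dpp6 binds, was at 228 to 309 CPM in control and 184 to 192 CPM in knockout hippocampus and changed in cortex by 0.15 (95% interval 0.00 to 0.30) (interaction -0.66, SE 0.10, adjusted p = 0.000683). Kcnd2 and Dpp6 both fell in hippocampus. Of 37 sodium, HCN and calcium channel subunits, 2 were called above 0 and 4 below 0. Scn1a, the Nav1.1 channel, changed by -0.28 in hippocampus and -0.91 in cortex (interaction 0.63, SE 0.10, adjusted p = 0.000695). Scn3b, an auxiliary sodium channel subunit, rose in cortex (interaction -0.99, SE 0.12, adjusted p = 8.07e-05), and Cacna1e, the R-type calcium channel, fell in hippocampus (interaction -0.52, SE 0.08, adjusted p = 0.00103).

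Of 24 glutamate receptor subunits, 1 was called above 0 and 4 below 0 (2 without DJ6, DJ20 or DJ22, 3 without DJ2, DJ3, DJ5, DJ7, DJ8 or DJ21 and 8 without DJ17). The group I metabotropic receptor Grm5 changed in cortex by 0.40 and in hippocampus by 0.03 (95% interval -0.09 to 0.14) (interaction -0.38, SE 0.08, adjusted p = 0.0106). Gria3, an AMPA receptor subunit, was at 545 to 588 CPM in control and 706 to 756 CPM in knockout cortex (interaction -0.28, SE 0.07, adjusted p = 0.0206; call lost in 4 of 27 alternatives). Of 20 GABA and glycine receptor subunits, 1 was called, below 0 (2 without DJ15 or DJ17). Of 35 monoamine and acetylcholine receptors, 3 were called above 0 and 3 below 0. Besides the serotonin receptors, Chrm3 fell in hippocampus. Control hippocampus held 37.4, 47.2, 40.8 and 38.3 CPM and knockout hippocampus 23.4, 19.9, 25.4 and 14.3 CPM, while control cortex held 50.1, 50.5, 51.4 and 52.0 CPM and knockout cortex 63.8, 65.8, 60.4 and 61.5 CPM. Chrm3 groups were separate in both regions, the cortical change of 0.30 (95% interval 0.05 to 0.55) was not called, and the interaction was -1.29 (SE 0.17, adjusted p = 0.000181). Chrna4, a nicotinic subunit, was at 8.36 to 11.3 CPM in control and 13.7 to 21.4 CPM in knockout hippocampus (interaction 0.92, SE 0.17, adjusted p = 0.00475). Of 48 neuropeptides and peptide receptors, 1 was called above 0 (Npy, 0.56, SE 0.14, adjusted p = 0.0317) and 2 below 0 (the neuropeptide Y receptors Npy2r, -1.13, SE 0.26, adjusted p = 0.02, and Npy1r, -0.60, SE 0.14, adjusted p = 0.0225). The count was 1 without DJ5, DJ20 or DJ22 and 7 without DJ17. Npy lost its call in 8 of 27 alternatives, Npy1r in 3 and Npy2r in 1, the test by edgeR.

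Of 41 postsynaptic scaffold and kinase genes, 3 were called above 0 and 5 below 0. The count was 4 without DJ2, DJ4, DJ7, DJ8 or DJ20, 5 without DJ6, DJ19 or DJ21 and 14 without DJ17. Homer2, a scaffold of metabotropic glutamate receptors, fell in hippocampus. Control hippocampus held 226, 231, 197 and 197 CPM and knockout hippocampus 106, 85.3, 80.0 and 88.5 CPM, while control cortex held 185, 161, 158 and 174 CPM and knockout cortex 155, 174, 192 and 177 CPM. The hippocampal groups were separate, the cortical groups overlapped with a change of 0.04 (95% interval -0.14 to 0.22), and the interaction was -1.28 (SE 0.12, adjusted p = 3.33e-06). Neto1, an auxiliary subunit of kainate receptors, was at 227 to 283 CPM in control and 172 to 194 CPM in knockout hippocampus (interaction -0.55, SE 0.10, adjusted p = 0.00552). Of 55 synaptic adhesion molecules, 2 were called above 0 and 8 below 0 (6 without DJ2, DJ7, DJ19 or DJ21). Lrrtm4, a leucine-rich repeat protein of excitatory synapses, was at 46.7 to 54.3 CPM in control and 85.8 to 105 CPM in knockout cortex (interaction -0.96, SE 0.13, adjusted p = 0.000227), and Slitrk2 fell in cortex (interaction 0.46, SE 0.08, adjusted p = 0.00372). Of 35 cadherins and protocadherins, 2 were called above 0 and 5 below 0. Pcdh7 fell in cortex (interaction 0.86, SE 0.14, adjusted p = 0.00148), Pcdh19 rose there (interaction -0.65, SE 0.14, adjusted p = 0.0109) and Cdh8 fell in hippocampus (interaction -0.49, SE 0.10, adjusted p = 0.00865). Of 47 presynaptic release genes, 2 were called above 0 and 1 below 0 (6 without DJ17 or DJ18). Vamp1, a vesicle SNARE, was at 86.6 to 94.5 CPM in control and 45.8 to 51.0 CPM in knockout cortex (interaction 0.67, SE 0.14, adjusted p = 0.01), and Doc2a, a relative of Doc2b, was at 2.51 to 8.73 CPM in control and 10.2 to 16.1 CPM in knockout hippocampus, with a call lost in 15 of 27 alternatives (interaction 1.35, SE 0.34, adjusted p = 0.0333).

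All calls among genes that neurons induce with activity were below 0. Of 35 activity regulated genes, 6 were called, Dusp4 and Ptgs2 of the opposite class among them, with a list median of -0.18. That median ran from -0.42 to -0.03 with 1 library left out. The list median of the hippocampal change was 0.04 against 0.06 over all genes tested, and that of the cortical change 0.23 against 0.03. In this list 5 hippocampal changes were called falls and 0 called rises, and 8 cortical changes were called rises and 0 called falls, against 1.56% falls and 1.66% rises in hippocampus and 5.94% rises and 4.34% falls in cortex over all genes. Bdnf, a neurotrophin, was at 49.0 to 57.6 CPM in control and 69.0 to 87.5 CPM in knockout cortex, with a hippocampal change of -0.24 (95% interval -0.46 to -0.02) (interaction -0.78, SE 0.15, adjusted p = 0.00588). Nptx2 was at 10.8 to 12.7 CPM in control and 6.05 to 8.39 CPM in knockout hippocampus, with a cortical change of 0.33 (95% interval 0.06 to 0.59) (interaction -0.95, SE 0.18, adjusted p = 0.00494).

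Of 51 genes of RGS proteins, cyclic nucleotides and phospholipid signalling, 4 were called above 0 and 7 below 0. Besides Dgkb and Dgkg, Plcxd2, of the phospholipase C-like family, was at 204 to 238 CPM in control and 128 to 144 CPM in knockout cortex (interaction 0.82, SE 0.12, adjusted p = 0.000385). Of 57 forebrain transcription factors, 6 were called above 0 and 3 below 0; Nr3c2, the mineralocorticoid receptor, was at 52.2 to 54.6 CPM in control and 68.7 to 78.1 CPM in knockout cortex (interaction -0.67, SE 0.12, adjusted p = 0.00473). Of 59 Wnt and growth factor signalling genes, 1 was called above 0, Dkkl1 (interaction 1.58, SE 0.35, adjusted p = 0.016; not called by edgeR), and 3 below 0, Fgf10 and Bdnf among them (7 without DJ17). Of 65 axon guidance ligands and receptors, 1 was called above 0 and 3 below 0 (7 without DJ17). Sema3e, a secreted semaphorin, was at 188 to 228 CPM in control and 89.0 to 116 CPM in knockout hippocampus (interaction -0.88, SE 0.12, adjusted p = 0.000181). The ephrin receptor Epha6 was at 85.7 to 124 CPM in control and 56.2 to 77.3 CPM in knockout hippocampus (interaction -0.99, SE 0.17, adjusted p = 0.00214), while its relative Epha5 rose in cortex (interaction -0.43, SE 0.09, adjusted p = 0.0143).

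Of 29 heparan sulfate genes, 2 were called above 0 and 1, Ndst4, below 0. Hs3st2, a sulfotransferase, was at 30.1 to 42.6 CPM in control and 12.9 to 19.2 CPM in knockout cortex (interaction 1.24, SE 0.27, adjusted p = 0.0125), and Sulf2, an endosulfatase that removes sulfate groups, was at 94.4 to 108 CPM and 48.6 to 57.9 CPM (interaction 0.68, SE 0.11, adjusted p = 0.000992). Of 49 extracellular matrix genes, 3 were called above 0 and 2 below 0. The collagen gene Col11a1 fell in hippocampus (interaction -1.40, SE 0.22, adjusted p = 0.00113), Col12a1 rose there (interaction 1.05, SE 0.21, adjusted p = 0.00737), and Hapln4, a link protein of perineuronal nets, fell in both regions, with log2 changes of -0.36 and -0.84 (interaction 0.48, SE 0.10, adjusted p = 0.011). Of 34 cholesterol and fatty acid genes, 2 were called above 0 and 2 below 0 (2 without DJ1, DJ3, DJ4, DJ5, DJ6, DJ8, DJ16, DJ19, DJ20, DJ21 or DJ22), with Cd36 above and Lpl below. Elovl4, an elongase of very long fatty acids, lost its call in 14 of 27 alternatives (interaction -0.30, SE 0.08, adjusted p = 0.0427). Of 44 ion and nutrient transporters, 2 were called below 0, both exchangers described above, and 1 above 0, the bicarbonate transporter Slc4a10, whose call was lost in 14 of 27 alternatives (interaction 0.40, SE 0.10, adjusted p = 0.0357). Of 27 neurofilament and microtubule genes, 2 were called, the neurofilament subunits Nefh and Nefm. They changed in cortex by -1.07 and -0.82 (interactions 0.74, SE 0.13, adjusted p = 0.00207, and 0.63, SE 0.12, adjusted p = 0.00588). In hippocampus Nefh changed by -0.32 (SE 0.09, limma adjusted p = 0.0515), not called, though its control and knockout libraries did not overlap. Nefm changed there by -0.19 (SE 0.09, limma adjusted p = 0.299), not called, with overlapping groups.

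Of 22 GABAergic interneuron markers, 3 were called above 0 and 1 below 0. Pvalb, parvalbumin, fell in cortex. Control hippocampus held 20.4, 15.9, 13.6 and 14.8 CPM and knockout hippocampus 15.2, 12.2, 11.6 and 16.2 CPM, while control cortex held 43.4, 43.6, 39.9 and 42.3 CPM and knockout cortex 21.8, 18.9, 17.5 and 19.97 CPM. The cortical groups were separate and the hippocampal groups overlapped, with an interaction of 0.88 (SE 0.17, adjusted p = 0.00661). Nos1, neuronal nitric oxide synthase, was at 37.4 to 45.1 CPM in control and 69.1 to 83.6 CPM in knockout cortex (interaction -0.77, SE 0.17, adjusted p = 0.0146). Of 15 immature neuron markers, 2 were called above 0 (Calb2 and Tbr1) and 1 below 0 (Sox11, -0.40, SE 0.11, adjusted p = 0.0478, lost in 19 of 27 alternatives), and the count was 1 without DJ2, DJ4, DJ6, DJ7, DJ8 or DJ20.

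**Figure D5:**
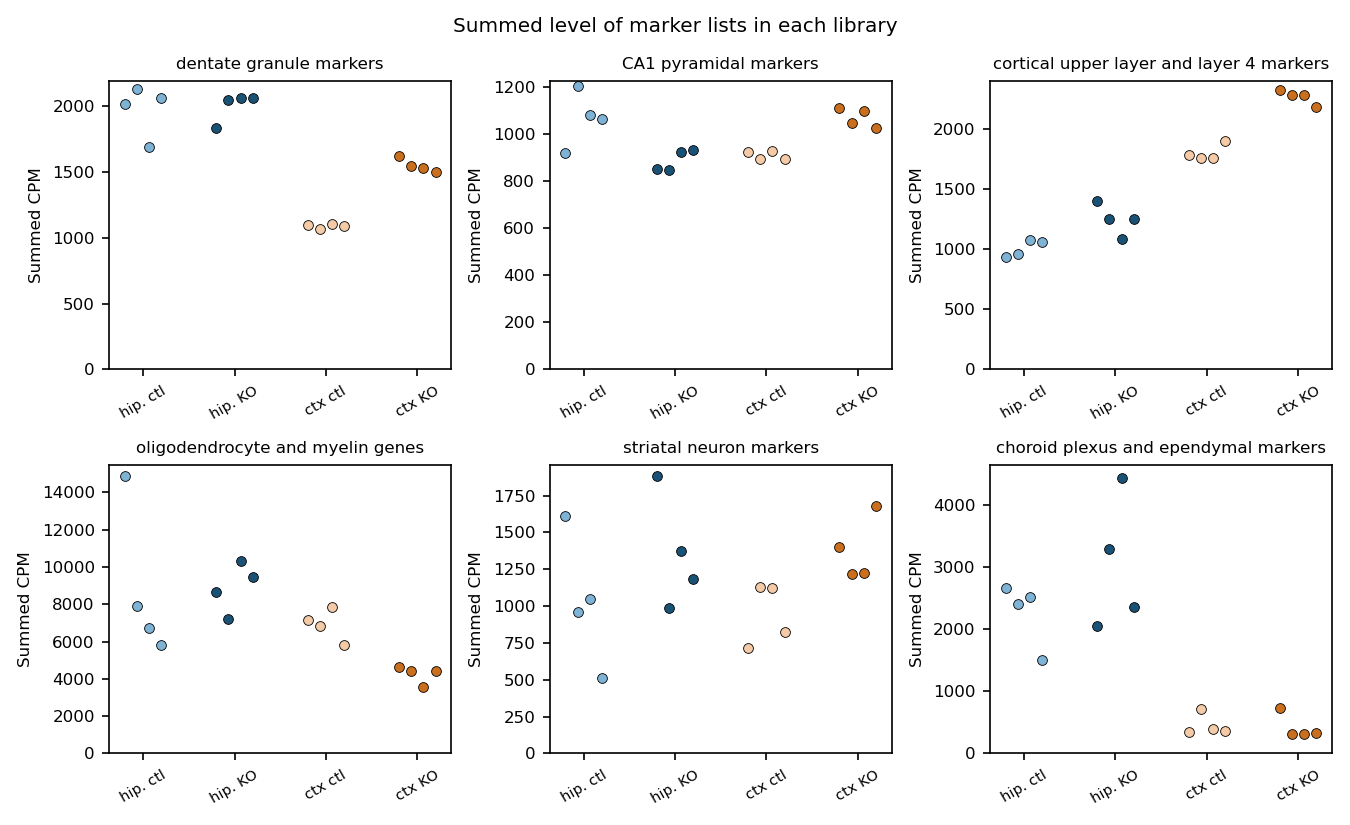
Summed level in CPM of 6 marker lists in each library; points are single libraries in control and knockout hippocampus and cortex. Myelin genes were at 5802 to 7856 CPM in control and 3543 to 4643 CPM in knockout cortex and highest in control hippocampus DJ17, and the choroid plexus list was high in control cortex DJ6 and knockout cortex DJ1.

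Markers of other cell types differed between libraries, and their part in the interactions was not tested. The sum of 26 oligodendrocyte and myelin genes was 5802 to 7856 CPM in control and 3543 to 4643 CPM in knockout cortex, with no overlap. In hippocampus it was 5819.7 to 14867 CPM in controls, with DJ17 highest, and 7213 to 10290.0 CPM in knockouts. The median interaction of these genes was 0.75 with 0 of 26 called by limma or edgeR and 17 at an unadjusted p below 0.05. In cortex 9 of them fell and 1 rose, against 4.34% falls and 5.94% rises over all genes tested. Without DJ17 the median was 1.04 and 17 were called, and without DJ16 3 were. The 2 with the smallest p were Olig1 (interaction 0.53, SE 0.15, adjusted p = 0.0582) and Bcas1 (interaction 0.93, SE 0.26, adjusted p = 0.0649).

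Striatal neuron markers had medians of 0.54 in hippocampus and 0.61 in cortex and a median interaction of -0.01, with 0 of 21 called. Their sum was 511 to 1609 CPM in control and 988 to 1885 CPM in knockout hippocampus, and 716 to 1129 CPM in control and 1219 to 1678 CPM in knockout cortex. Control hippocampus DJ17 had the highest striatal sum of its group (1609 CPM against 511 to 1049 CPM). It also had the highest thalamic sum (741 CPM against 458 to 540 CPM) and the lowest CA1 sum (919 CPM against 1064 to 1206 CPM). Its dentate sum of 2012 CPM lay among the others (1684 to 2131 CPM). Choroid plexus and ependymal markers summed to 342 to 711 CPM in control and 316 to 724 CPM in knockout cortex, and to 1499 to 2664 CPM in control and 2057 to 4428 CPM in knockout hippocampus. No interaction was called among 18 choroid plexus, 14 thalamic, 20 microglial, 24 vascular, 58 ribosomal protein and 74 oxidative phosphorylation genes, by limma or by edgeR. At an unadjusted p below 0.05 limma counted 1, 2, 0, 2, 0 and 0 of them in that order, 2 of the striatal markers, and 1915 of all genes tested. Of 21 astrocyte markers 1 was called (S100b, 0.53, SE 0.14, adjusted p = 0.0466, lost in 14 of 27 alternatives). Their sum did not overlap between genotypes in cortex, at 13350 to 15420 CPM in controls and 12245 to 13083 CPM in knockouts. In cortex 4 astrocyte markers fell and 2 rose, and 4 striatal markers rose and 0 fell, against 4.34% falls and 5.94% rises over all genes tested.

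The authors' deposited tables list 243 genes changed in hippocampus and 874 in cortex. Those lists belong to the same series and their threshold is not given here, while 446 and 1428 genes were called in this fit. Shared genes are thus no independent check. Both lists of the authors' deposited tables share 91 genes, 17 of them with opposite signs. Of the 17 in the authors' deposited tables, 14 had a called interaction here, and 10 of them belong to the opposite class of 24 described above. The others with a called interaction were Col11a1 and Vgll3, called here in hippocampus and not in cortex, and Myo5b and Pcdh20, called in cortex and not in hippocampus. The authors' deposited tables give Lpl log2 fold changes of -1.37 in hippocampus and 1.58 in cortex, and Sorcs3 -0.65 and 0.79. Lrrc10b, Pcp4 and Slc17a6 are listed with opposite signs in the authors' deposited tables and had no called interaction here.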

How the data were processed

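Poly(A) RNA from flash-frozen left hippocampus and cortex was sequenced on an Illumina NextSeq, per the labels' protocols, in 4 libraries for each of 4 groups. The submitters' processing notes name STAR, HTSeq, edgeR, mm10 and GRCm38 without versions or roles. No annotation or strand setting is given in the sources used here, so antisense and near-identical genes may share reads. The authors deposited 1 table of depth-scaled read counts (CPM) for 21999 genes, and log2 fold changes with p-values in the authors' deposited tables of changed genes. Every CPM value was a whole multiple of 1 read within a tolerance of 0.001, which gave depths of 6943136 to 14817870 reads counted to genes and whole reads for a count test.

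Genes whose mean reached 0.5 CPM were fitted as log2(CPM + 0.5) over all 16 libraries with 4 group means, in limma 3.58.1 (R 4.3.3) with a mean-variance trend. Adjusted p-values follow Benjamini-Hochberg over all 13881 genes, with 0.05 as threshold, and intervals are at 95%. Log2 changes understate those of low genes. The count test was edgeR 4.0.16 (quasi-likelihood) on the recovered reads, which called 354 interactions, 319 of them also called by limma. A permutation of genotype within regions, planned for Foxp1, assumes no effect in either region and is not used. Further alternatives were other pseudocounts, expression minimums, scalings, a replicate block, separate fits of each region, each library left out in turn and a subset of libraries by DJ number, the last chosen after seeing the data.

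Named genes were FOXP family members, those with the largest absolute interactions in each class (mean of at least 1 CPM, no clone or predicted gene), and up to 3 called members of each list by smallest p, or up to 2 where none was called. Members, gene lists and rules were chosen with earlier results of these data known. Some genes that these rules select are not reported here.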

Additional observations from a re-analysis of the deposited data

Results flagged for a closer look

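In 13 of 192 groups of 4 libraries examined, 1 library lay far from the other 3 relative to the range of its group, and chance alone marks about 1 in 20 such groups. Control hippocampus DJ17 was low for Slc9a4 (19.1 CPM against 31.2 to 31.7 CPM), Dgkg (155 CPM against 224 to 231 CPM) and Atg9b (1.67 CPM against 2.40 to 2.51 CPM), and control hippocampus DJ22 for Stac (1.96 CPM against 3.03 to 3.20 CPM). In knockout hippocampus, DJ16 was high for Lpl (55.7 CPM against at most 46.4 CPM), DJ18 low for Prr16 (6.65 CPM against 8.25 to 8.62 CPM) and DJ15 low for the summed dentate granule markers (1829.6 CPM against 2041 to 2062 CPM). Control cortex DJ3 was high for Cd36 (1.39 CPM against 0.664 to 0.707 CPM), and DJ6 for the summed choroid plexus and ependymal markers (711 CPM against 342 to 399.5 CPM). In knockout cortex, DJ1 was low for Htr2a (14.0 CPM against 20.1 to 21.2 CPM) and high for the choroid plexus and ependymal sum (724 CPM against 316 to 330.3 CPM), DJ4 was high for Dusp4 (16.4 CPM against 10.6 to 11.3 CPM) and DJ5 for Qrfpr (10.3 CPM against 8.66 to 8.85 CPM).

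For 30 genes named by class, the effect of the knockout differed between hippocampus and cortex by the interaction test. In the opposite class the interactions were 2.10 for Hpse, 1.33 for Htr2a, 0.68 for Sccpdh, 0.63 for Me3, -2.98 for Ndst4, -2.90 for Lpl, -1.63 for Dusp4 and -1.43 for Fgf10. Among genes called in hippocampus and not in cortex they were 3.92 for Vgll3, 2.06 for Bace2, 1.93 for Calb2, 1.83 for Fibin, -2.86 for Slc9a4, -2.38 for Stac, -2.16 for Slc9a2 and -1.44 for Grem1. Among genes called in cortex and not in hippocampus they were -2.06 for Qrfpr, -1.36 for Itga4, -1.24 for Dgkg, -1.23 for Rgs14, 2.19 for Olfr78, 2.18 for Myl4, 1.87 for Prr16 and 1.80 for Rxfp2. With the same sign in both regions they were 1.33 for Cd36, -0.97 for Cdhr1, -0.94 for Doc2b and -0.72 for Pcdh8, and with neither region called -1.71 for Slitrk6 and -1.47 for Atg9b.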

How the results depend on the processing

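Other pseudocounts, expression minimums, scalings, a robust variance estimate and edgeR gave 290 to 388 interaction calls against 378. Leaving out 1 library at a time gave 248 to 699 calls, 107 to 372 of them above 0 and 141 to 327 below 0, with the highest counts without control hippocampus DJ17 (369 genes shared with the 378) and the lowest without control hippocampus DJ20 (240 shared). The opposite class then held 14 to 39 genes, calls in hippocampus and not in cortex 46 to 123, calls in cortex and not in hippocampus 159 to 448, the same-sign class 5 to 12 and calls in neither region 13 to 77. Genes higher in control hippocampus with an interaction below 0 numbered 110 to 234, and genes higher in control cortex with one above 0 numbered 74 to 195. The Foxp1 interaction was 0.29 to 0.54 and never called. With no expression minimum the opposite class held 15 genes. With separate fits of each region, 45 genes were called in hippocampus and not in cortex and 4 in both with the same sign. At an absolute interaction of at least 0.5, 6 same-sign genes and 17 called in neither region were left. When only the cortical libraries DJ4 to DJ8 and the hippocampal libraries DJ18 to DJ22 were kept, which was chosen after seeing the data, 772 were called (298 shared), 386 above 0 and 386 below 0, with 64 opposite, 139 in hippocampus and not in cortex, 469 in cortex and not in hippocampus, 88 in neither, and 242 below 0 among genes higher in control hippocampus; the cause was not tested. A replicate block that pairs hippocampal and cortical libraries whose DJ numbers differ by 14 gave 520 calls (352 shared). The labels do not state that pairing, and the deviations of the 8 pairs correlated at -0.0219 to 0.157, over 0.1 in 3 pairs and best with the own partner in 1. Of 105 named genes with a called interaction, 79 kept the call in all 27 alternatives, 26 lost it in some and 0 reversed. Depth limits genes near 1 CPM, where 1 read is worth 0.0675 to 0.144 CPM.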
